A study of Caenorhabditis elegans with 12 samples.

Results

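The genes described here are 38 listed genes of Caenorhabditis elegans that encode subunits and factors of RNA polymerases I and III (12 genes) or nucleolar proteins and factors of ribosome assembly (26 genes). They were listed by name, with earlier results of these data known. Their names were looked up among the 46891 named genes of the count table of the y54g2a.18 experiment. In it y54g2a.18 was silenced by RNA interference (RNAi, the lowering of a transcript by double-stranded RNA). Of the 38 names 36 had an entry in that table. The tested worms received y54g2a.18 RNAi and the others a control RNAi, with 3 libraries in each group. All were of the wild-type strain N2, with no other allele or agent given, and polyadenylated RNA was extracted with TRIzol and sequenced on an Illumina NovaSeq. The sources used here do not give the worms' age or stage, the content of the control RNAi or how the RNAi was delivered. Y54G2A.18 is the worm homologue of BCAP31, a membrane protein gene of the endoplasmic reticulum, and the series asked how this gene and rpoa-49 bear on ageing. rpoa-49 is a worm counterpart of POLR1E, which encodes a subunit of RNA polymerase I. The labels do not say whether replicate libraries stem from separate cultures, so the p-values reflect the spread among these samples only, and that spread may be technical.

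RNA polymerase I transcribes the precursor of the large ribosomal RNAs in the nucleolus, and RNA polymerase III transcribes the small ribosomal RNA, transfer RNAs and other short RNAs. The precursor is methylated and pseudouridylated by small nucleolar ribonucleoproteins, cut and folded by assembly factors, and exported as the small and large ribosomal subunits. In worms, small nucleoli and low levels of fibrillarin are known from long-lived animals. The roles given below rest mostly on the homologous proteins of yeast and human.

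The targeted gene was examined first. Y54G2A.18 was at 190, 128 and 90.2 CPM (a gene's counts scaled to a common library size with trimmed-mean, TMM, factors) in the y54g2a.18 RNAi libraries, against 391, 358 and 409 CPM in the control libraries. Every RNAi library lay below every control library, and the gene fell with a log2 fold change of -1.51 (SE 0.25, adjusted p = 0.00732, edgeR's quasi-likelihood test with Benjamini-Hochberg adjustment over all genes tested). Libraries held 30096438 to 38306576 counts after RNAi and 34555880 to 39482828 counts in the controls. Ribosomal RNA made up 0.0937, 1.31 and 2.02% of the counts of RNAi replicates 1, 2 and 3, against 1.03, 1.64 and 0.214% in control replicates 1, 2 and 3. RNAi replicate 1 and control replicate 3 therefore stood apart from the other 4 libraries, and calls that depend on them are given with and without them. The experiment on rpoa-49 was not analysed here, because its table listed human-style gene names and 418 counts in all over 6 libraries.

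Some entries limited what could be read. The names nol-1 and nol-2 had no entry. brf-1, the TFIIIB subunit that brings RNA polymerase III to its promoters, and nola-3, the NOP10 homologue of the pseudouridylation complex, had 0 counts in all 6 libraries. ncl-1, which encodes a TRIM-NHL protein that restrains fibrillarin and nucleolar size in worms, had 1 count, in RNAi replicate 3. dao-5, the homologue of the nucleolar phosphoprotein Nopp140, had 11, 14 and 15 counts in the RNAi libraries and 34, 21 and 11 in the control libraries. Low entries were more common where a gene has several transcripts. Of protein-coding entries with 1 RefSeq transcript 6.91% of 14871 were at 0, and their median was 1136 counts over the 6 libraries, while of entries with more than 1 transcript 47.3% of 4669 were at 0 with a median of 2 counts. brf-1, dao-5, rpoa-1, rpc-11, nol-9 and rbd-1 have 2 RefSeq transcripts each and ncl-1 has 8, and their levels are therefore not read as levels of the whole gene. nola-3 has 1 transcript, and all of its exon sequence lies inside C25A1.16 on the same strand, which was also at 0. The part of transcript number and of overlap in these counts was not tested.

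After the filter on low counts 33 genes were tested, 11 of the polymerase group and 22 of the nucleolar group, with brf-1, nola-3 and ncl-1 left out. None of the 33 was called after y54g2a.18 RNAi: 0 passed an adjusted p of 0.05 in edgeR, 0 in DESeq2 and 0 in limma-voom. In the same libraries edgeR called 8.98% of 14290 tested genes (3.97% higher and 5.01% lower after RNAi), DESeq2 called 12.4% and limma-voom 8.53%. Of the 33 genes 1, lpd-7, had an unadjusted p under 0.05 in each of the 3 tools, against 23.3% of all tested genes in edgeR. All 3 RNAi libraries lay above all 3 control libraries for 2 genes, lpd-7 and nst-1, and below them for 0 genes, while these patterns were found in 15.8% and 14.6% of all tested genes. The median log2 fold change was -0.051 over the 11 polymerase genes, -0.0532 over the 22 nucleolar genes and 0.0211 over all tested genes. Of the 33 genes 32 had a log2 fold change between -0.5 and 0.5, which held for 70.5% of all tested genes. The 95% interval lay between -1 and 1, that is within a 2-fold change either way, for 28 of the 33 and for 57.2% of all tested genes. The exceptions were rpoa-1, rpoa-2, rpc-1, tif-1A and dao-5. In RNA from whole worms, fewer cells of a type and less RNA per cell cannot be told apart.

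**Figure D1:**
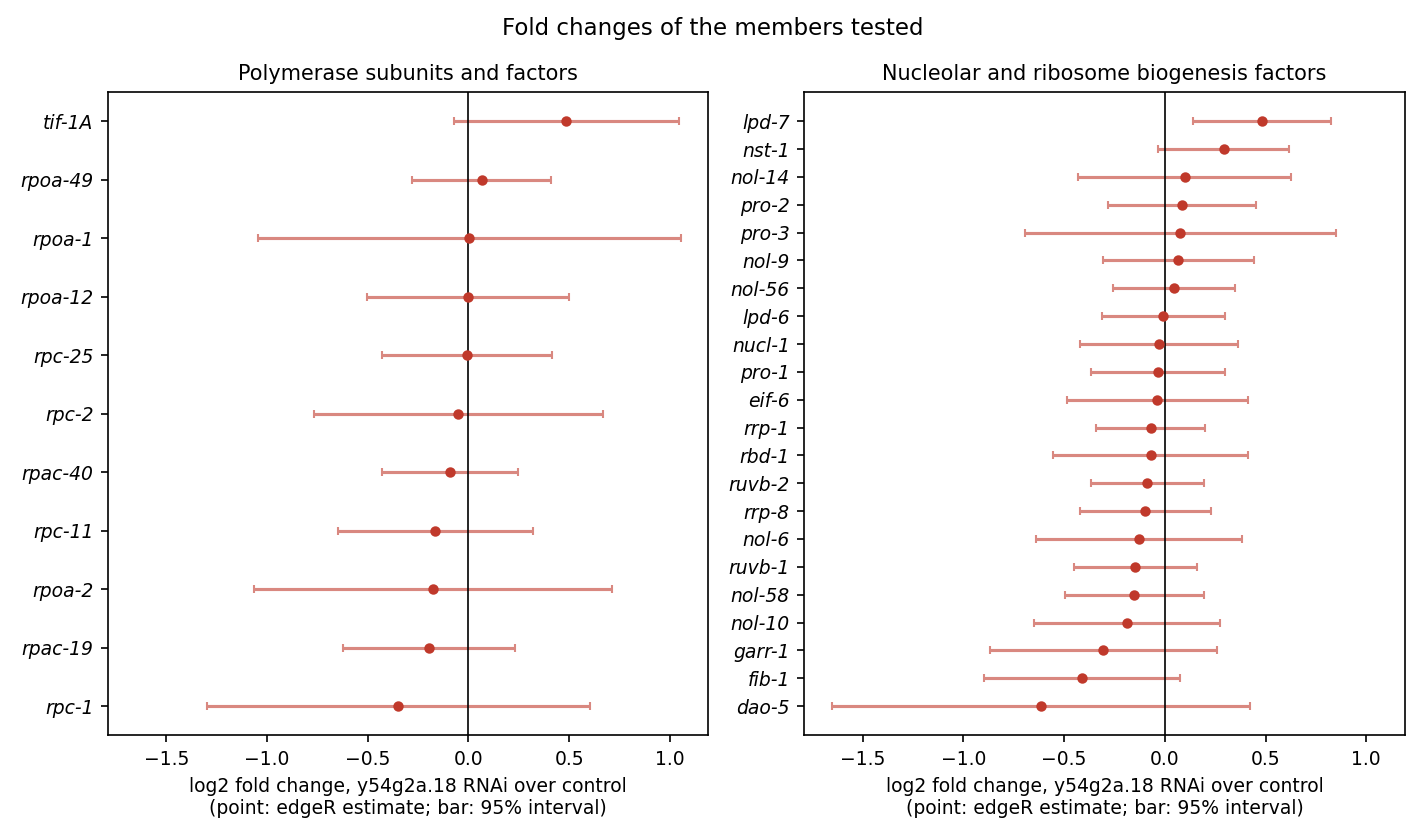
Log2 fold changes of the 33 genes tested, y54g2a.18 RNAi over control RNAi, with polymerase genes in the left panel and nucleolar genes in the right. Points are edgeR estimates and bars 95% intervals from 3 libraries a group. The interval of lpd-7, from 0.14 to 0.82, is the only one that does not include 0.

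Among the 11 tested polymerase genes 3 had a log2 fold change above 0 and 8 below 0, from -0.35 for rpc-1 to 0.49 for tif-1A. tif-1A encodes the homologue of TIF-IA (Rrn3 in yeast), the factor that makes RNA polymerase I able to start transcription. It was at 130, 245 and 214 CPM in RNAi replicates 1, 2 and 3, against 145, 164 and 111 CPM in the control libraries. RNAi replicates 2 and 3 lay above all controls and RNAi replicate 1 lay among them, so the groups overlapped. The log2 fold change was 0.49 with an SE of 0.24, a 95% interval from -0.07 to 1.05 and an adjusted p of 0.279 in edgeR.

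rpoa-49, the RNA polymerase I subunit that is the other target of the series, was at 33.0, 31.5 and 27.5 CPM after y54g2a.18 RNAi, against 30.9, 29.0 and 28.0 CPM in the controls. These libraries lay within 1.204-fold of one another in the RNAi group and 1.101-fold in the control group, and the ranges overlapped. The log2 fold change was 0.07 (95% interval -0.28 to 0.41, adjusted p = 0.842, edgeR). Of its exon sequence 7.29% overlaps rpt-4 on the other strand, whose entry held 15 counts in all. rpoa-12, a small RNA polymerase I subunit, was at 78.0, 42.6 and 51.6 CPM after RNAi and 54.7, 56.9 and 60.6 CPM in the controls. RNAi replicate 1 was above and RNAi replicates 2 and 3 were below all controls, and the log2 fold change was -0.0009 (95% interval -0.50 to 0.50, adjusted p = 0.998, edgeR).

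rpac-19 and rpac-40 encode the pair of subunits that RNA polymerases I and III share and that begin the assembly of both enzymes. rpac-19 was at 136, 81.4 and 112 CPM after RNAi, against 125, 124 and 129 CPM in the controls. The controls lay within 1.04-fold of one another and inside the range of the RNAi libraries (log2 fold change -0.20, 95% interval -0.62 to 0.23, adjusted p = 0.587, edgeR). rpac-40 was at 102, 89.0 and 76.1 CPM after RNAi and 96.9, 87.5 and 100.5 CPM in the controls. Its groups overlapped too, with a log2 fold change of -0.09 (95% interval -0.43 to 0.25, adjusted p = 0.766, edgeR).

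RNA polymerase III was represented by its large subunits rpc-1 and rpc-2 and the small subunits rpc-11 and rpc-25. rpc-1, the largest, was at 14.9, 19.97 and 44.95 CPM in RNAi replicates 1, 2 and 3, against 35.7, 43.9 and 21.9 CPM in the controls. The RNAi libraries differed by 3.02-fold and the control libraries by 2.00-fold, and both groups overlapped (log2 fold change -0.35, 95% interval -1.3001 to 0.60, adjusted p = 0.675, edgeR). This value rested on single libraries, at -0.96 without RNAi replicate 3 (adjusted p = 0.1099) and -0.06 without RNAi replicate 1 (adjusted p = 0.932). rpc-11 was at 17.6, 10.8 and 12.8 CPM after RNAi and 15.1, 14.8 and 16.3 CPM in the controls, with overlapping groups and a log2 fold change of -0.16 (adjusted p = 0.702, edgeR). The remaining polymerase genes, rpoa-1, rpoa-2, rpc-2 and rpc-25, had log2 fold changes from -0.17 for rpoa-2 to 0.01 for rpoa-1, and adjusted p from 0.839 to 0.996.

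**Figure D2:**
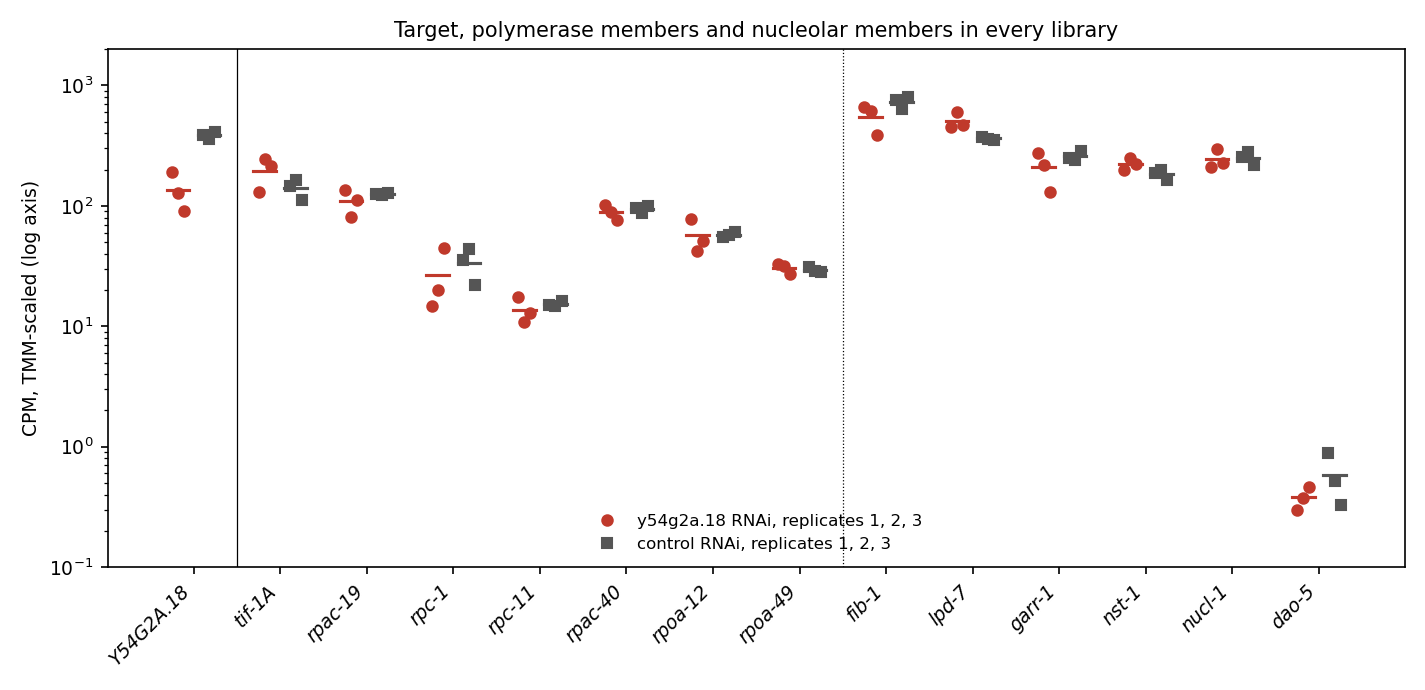
TMM-scaled CPM on a log axis for the target Y54G2A.18 (left of the solid line), 7 polymerase genes (middle) and 6 nucleolar genes (right of the dotted line), with y54g2a.18 RNAi as circles and control RNAi as squares. Points are libraries in the order of replicates 1, 2 and 3 and lines are group means. The groups are separate for Y54G2A.18, lpd-7 and nst-1 and overlap for the other 11 genes.

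Among the 22 tested nucleolar genes 7 had a log2 fold change above 0 and 15 below 0, from -0.62 for dao-5 to 0.48 for lpd-7. The highest fold changes, those of lpd-7 and nst-1, were of factors of the large ribosomal subunit. lpd-7, the homologue of pescadillo, a protein of the complex that processes the precursor of the large-subunit RNA, was at 452, 602 and 467 CPM in the RNAi libraries, against 372, 362 and 355 CPM in the controls. Every RNAi library lay above every control library, and the controls lay within 1.05-fold of one another. The log2 fold change was 0.48 with an SE of 0.15, an unadjusted p of 0.0114 and an adjusted p of 0.0896 in edgeR, which does not pass. nst-1, the homologue of nucleostemin, a nucleolar GTPase, was at 199, 251 and 222 CPM after RNAi, against 187, 197 and 165 CPM in the controls. The lowest RNAi library was close above the highest control, and the log2 fold change was 0.29 with an SE of 0.14 (95% interval -0.03 to 0.62, adjusted p = 0.263, edgeR).

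Of the other factors of large-subunit assembly, 7 lay between -0.07 and 0.09 on the log2 scale. pro-1, pro-2 and pro-3 were first known in worms from their part in germline proliferation, and rrp-1, lpd-6, nol-9 and eif-6 act in precursor processing or, for eif-6, in keeping the subunits apart. Their log2 fold changes were -0.03, 0.09 and 0.08 for pro-1, pro-2 and pro-3, and -0.07, -0.01, 0.07 and -0.04 for rrp-1, lpd-6, nol-9 and eif-6. Adjusted p in edgeR ran from 0.779 for rrp-1 to 0.983 for lpd-6. rrp-1 had the smallest SE of the 33 genes, 0.12, with a 95% interval from -0.34 to 0.20, while the interval of pro-3 ran from -0.70 to 0.85. Of the exon sequence of pro-3 12.5% overlaps zhp-4 on the same strand. The sources used here do not give how reads of that stretch were counted.

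fib-1 encodes fibrillarin, the methyltransferase of the box C/D ribonucleoproteins and a common marker of the nucleolus. It was at 657, 612 and 388 CPM in RNAi replicates 1, 2 and 3, against 759, 639 and 805 CPM in the controls. RNAi replicate 3 was the lowest library, and RNAi replicate 1 lay above control replicate 2, so the groups overlapped. The log2 fold change was -0.41 with an SE of 0.21 (95% interval -0.90 to 0.07, adjusted p = 0.291, edgeR). It was -0.21 without RNAi replicate 3 (adjusted p = 0.437, edgeR). Without RNAi replicate 1 it was -0.55 (adjusted p = 0.123, edgeR), and without RNAi replicate 2 -0.49 (adjusted p = 0.276, edgeR). nol-56 and nol-58, the core proteins of the same ribonucleoproteins, had log2 fold changes of 0.04 and -0.15 (adjusted p = 0.882 and 0.609, edgeR).

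garr-1, the GAR1 homologue of the H/ACA ribonucleoproteins that make pseudouridine, was at 275, 220 and 132 CPM after RNAi, against 248, 240 and 285 CPM in the controls. As for fib-1, RNAi replicate 3 was the lowest library, and the groups overlapped (log2 fold change -0.30, 95% interval -0.87 to 0.26, adjusted p = 0.512, edgeR). Without RNAi replicate 3 the log2 fold change of garr-1 was -0.06 (adjusted p = 0.856). ruvb-1 and ruvb-2, the paired AAA ATPases that help to assemble these ribonucleoproteins and other complexes, had log2 fold changes of -0.15 and -0.09, with adjusted p of 0.566 and 0.730 in edgeR. rrp-8, a methyltransferase of the large ribosomal RNA, had a log2 fold change of -0.10 (adjusted p = 0.741, edgeR).

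nucl-1, the nucleolin homologue, was at 211, 299 and 225 CPM after RNAi and 253, 279 and 219 CPM in the controls. RNAi replicate 1 was the lowest and RNAi replicate 2 the highest of all 6 libraries, and the log2 fold change was -0.03 (95% interval -0.42 to 0.36, adjusted p = 0.936, edgeR). dao-5 was at 0.300, 0.372 and 0.467 CPM after RNAi and 0.882, 0.523 and 0.330 CPM in the controls, and its log2 fold change of -0.62 had a 95% interval from -1.65 to 0.42 (adjusted p = 0.467, edgeR). The factors of the small ribosomal subunit, nol-6, nol-10, nol-14 and rbd-1, had log2 fold changes of -0.13, -0.19, 0.10 and -0.07, with adjusted p from 0.639 to 0.882 in edgeR.

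The calls of tif-1A and lpd-7 depended on how the libraries that stood apart were treated. With the log2 share of ribosomal RNA as a covariate the log2 fold change was 0.49 for tif-1A (adjusted p = 0.0257) and 0.49 for lpd-7 (adjusted p = 0.0408), and both were called, as were 15.5% of all tested genes. Without RNAi replicate 1 they were 0.71 for tif-1A (adjusted p = 0.0341) and 0.56 for lpd-7 (adjusted p = 0.0387), with 14.4% of all tested genes called. Without RNAi replicate 1 and control replicate 3 together they were 0.57 for tif-1A (adjusted p = 0.0940) and 0.54 for lpd-7 (adjusted p = 0.145), and 0 of the 33 genes and 5.82% of all tested genes were called in edgeR, with an unadjusted p under 0.05 for 2 of the 33. Over all 17 alternatives the adjusted p ran from 0.0257 to 0.602 for tif-1A and from 0.0387 to 0.304 for lpd-7, and the log2 fold changes stayed above 0, from 0.30 (without RNAi replicate 2) to 0.71 for tif-1A and from 0.34 (without RNAi replicate 2) to 0.56 for lpd-7. The other 31 genes were called in none of them.

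Within each group the level of many of these genes followed the length of the transcript. For the 28 tested genes with 1 RefSeq transcript, log2 CPM was set against the gene's mean in its own group, and these deviations were ranked against exon length. Spearman's rho across the 28 genes was -0.96, 0.22 and 0.73 in RNAi replicates 1, 2 and 3, against 0.17, 0.90 and -0.91 in control replicates 1, 2 and 3. These are descriptions across genes that share their libraries and are not independent replicates. The genes over 3 kb of exon, rpc-1, rpoa-2, rpc-2, pro-3 and nol-6, had a median deviation of -0.62, -0.07 and 0.66 on the log2 scale in RNAi replicates 1, 2 and 3, and of 0.02, 0.40 and -0.42 in control replicates 1, 2 and 3. The genes under 1 kb, garr-1, rpc-25, rpac-19 and rpoa-12, had 0.42, -0.27 and -0.16 in the RNAi libraries and -0.03, -0.06 and 0.07 in the controls. Long genes were thus low, and short genes high, in RNAi replicate 1 and control replicate 3, the libraries with the least ribosomal RNA, and long genes were high in RNAi replicate 3 and control replicate 2, the libraries with the most. Over 11500 protein-coding genes with 1 transcript rho was -0.61, 0.34 and 0.33 in the RNAi libraries and 0.08, 0.45 and -0.51 in the controls. Between the groups, rho of log2 fold change with length was 0.11 over the 28 genes. The part of RNA quality or of the ribosomal RNA share in this pattern was not tested.

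**Figure D3:**
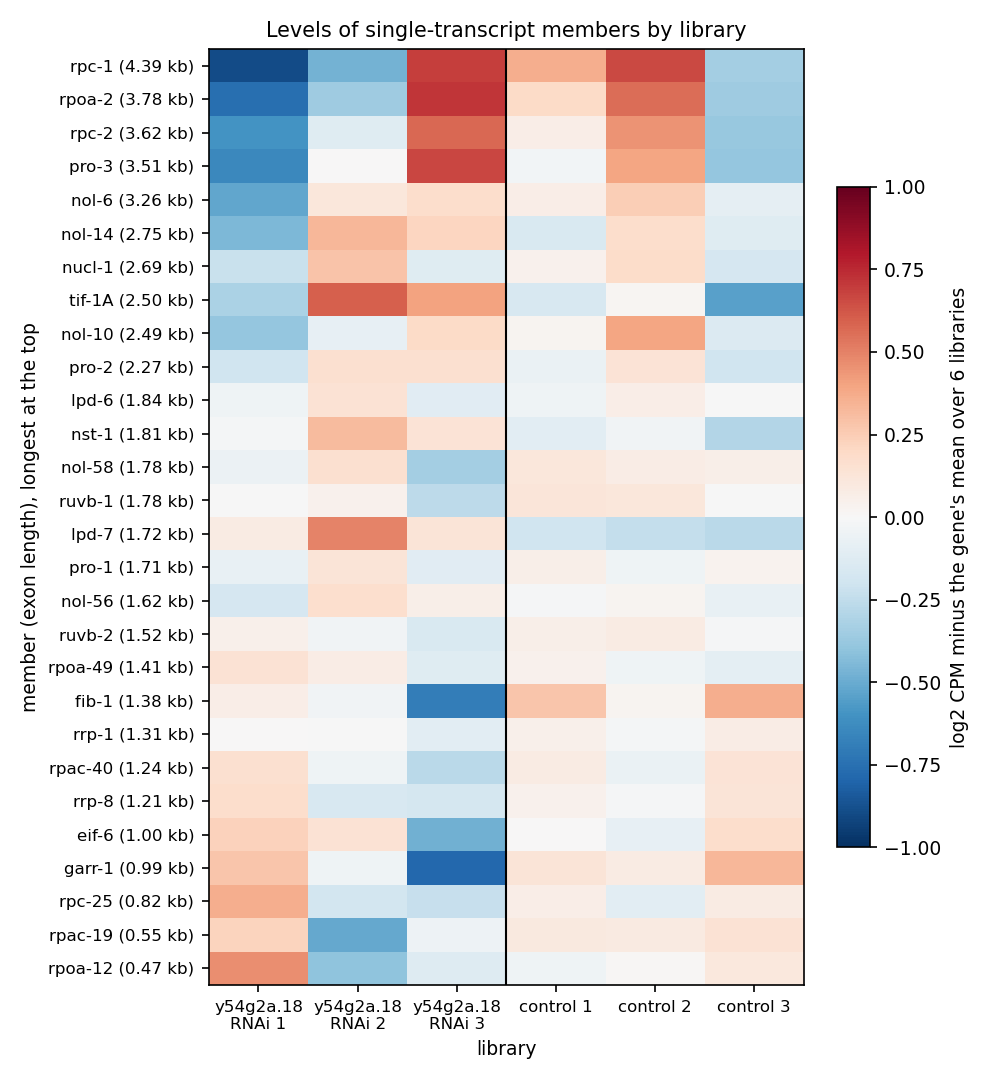
Log2 CPM of the 28 tested genes with 1 RefSeq transcript minus the gene's mean over all 6 libraries, as colour, with y54g2a.18 RNAi libraries left of the line and control libraries right of it, and genes ordered by exon length from 4.39 kb (top) to 0.47 kb. The longest genes are low in RNAi replicate 1 and control replicate 3 and high in RNAi replicate 3 and control replicate 2. In RNAi replicate 2 rpc-1, rpoa-2 and rpc-2 also lie below their means (-0.47, -0.36 and -0.12), while pro-3 and nol-6 lie above (0.001 and 0.115).

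This pattern reached the subunits of single enzymes. The ratio of rpc-1 to rpc-25 CPM, both of RNA polymerase III, was 0.209, 0.408 and 0.951 in the RNAi libraries and 0.613, 0.853 and 0.373 in the controls, a span of 4.55-fold over the 6 libraries. The ratio of rpoa-2 to rpoa-12, both of RNA polymerase I, was 0.186, 0.449 and 0.784 after RNAi and 0.513, 0.637 and 0.316 in the controls, a span of 4.22-fold. The long subunits rpc-1 and rpc-2 kept a ratio of 0.479 to 0.665 after RNAi and 0.628 to 0.751 in the controls. Within the RNAi group 4 of the 11 polymerase genes and 2 of the 22 nucleolar genes differed by more than 2-fold between libraries, against 26.0% of all tested genes. Within the control group 1 of the 11 and 1 of the 22 did, against 10.9% of all tested genes.

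**Figure D4:**
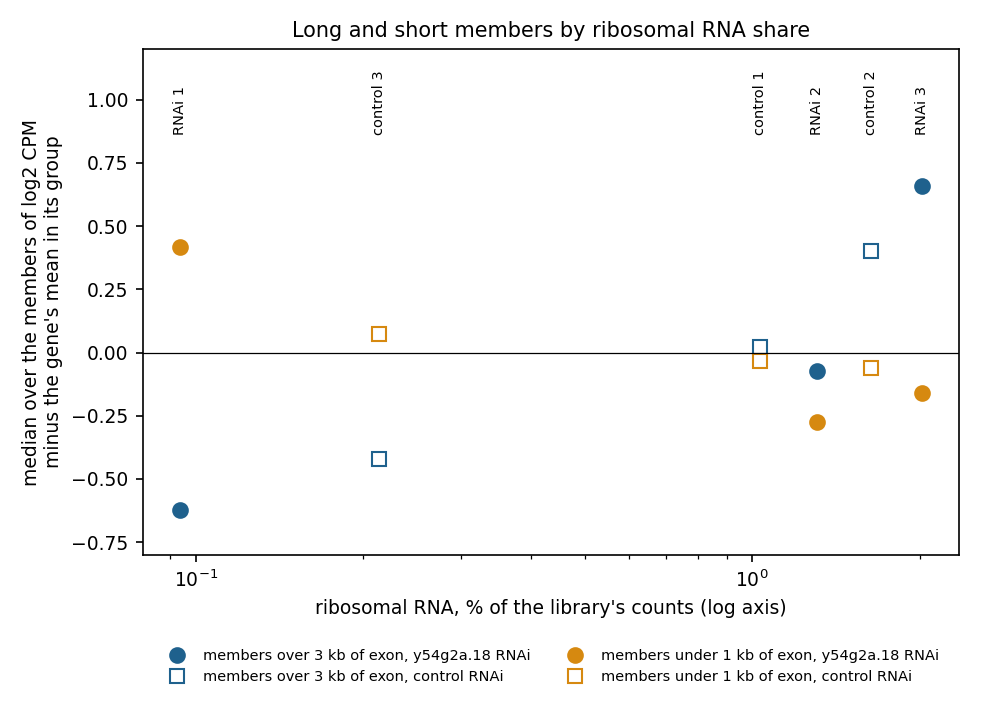
Median deviation from the group mean, on the log2 CPM scale, of the 5 genes over 3 kb of exon and the 4 genes under 1 kb, against the ribosomal RNA share of each library on a log axis, with y54g2a.18 RNAi filled and control RNAi open. The long genes run from -0.62 in RNAi replicate 1, with 0.0937% ribosomal RNA, to 0.66 in RNAi replicate 3, with 2.02%.

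Levels were compared between genes per length of exon. Divided by the exon length of the reference annotation, fib-1 was the highest of the 28 genes by the mean over all 6 libraries, at 402 ± 105 CPM per kb after RNAi and 534 ± 62.1 CPM per kb in the controls (SD, n = 3 each, as below). By the same mean it was followed by lpd-7, at 294 ± 48.1 after RNAi and 211 ± 5.07 CPM per kb in the controls, garr-1, at 211 ± 73.1 after RNAi and 261 ± 24.1 in the controls, and rpac-19, at 202 ± 50.3 after RNAi and 231 ± 4.803 CPM per kb in the controls. After RNAi each of these 4 overlapped its neighbour in this order within their SDs, fib-1 and lpd-7 included. In the controls the order of the other 3 was garr-1, rpac-19 and lpd-7, and lpd-7 lay below both beyond their SDs, so the second place of lpd-7 does not hold there. The lowest by the mean over all libraries were rpoa-2, at 6.52 ± 3.66 CPM per kb after RNAi and 7.35 ± 2.26 in the controls, rpc-1, at 6.06 ± 3.67 CPM per kb after RNAi and 7.71 ± 2.53 in the controls, pro-3, at 5.61 ± 2.502 after RNAi and 5.31 ± 1.44 in the controls, and nol-6, at 4.07 ± 0.995 after RNAi and 4.44 ± 0.528 CPM per kb in the controls. rpoa-2 and rpc-1, rpc-1 and pro-3, and pro-3 and nol-6 overlapped within their SDs in both groups. Within RNA polymerase III, rpc-25 was at 67.6 ± 16.2 CPM per kb after RNAi and 68.0 ± 4.91 in the controls, above rpc-2 at 12.8 ± 5.31 after RNAi and 13.3 ± 3.72 CPM per kb in the controls. Since long transcripts varied with the library, this order describes these libraries only.

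Other genes of the same pathways were taken from 6 lists of 72 names: shared and RNA polymerase II subunits, RNA polymerase III factors with the SNAPc complex, further ribosome biogenesis factors, the RNA exosome, and growth control by TOR. Of 65 found 55 were tested, and 0 were called in edgeR, 3 in DESeq2 and 0 in limma-voom, against 8.98, 12.4 and 8.53% of all tested genes. In edgeR 6 of the 55 had an unadjusted p under 0.05, against 23.3% of all tested genes. Without RNAi replicate 1 edgeR called 7 of the 55, against 14.4% of all tested genes. The genes named from here were chosen after their values were seen. nog-1, a GTPase of large-subunit assembly, was at 288, 592 and 522 CPM after RNAi, against 256, 290 and 222 CPM in the controls (log2 fold change 0.87, SE 0.26, adjusted p = 0.0771 in edgeR and 0.0210 in DESeq2). RNAi replicates 2 and 3 were far above RNAi replicate 1, which was just below control replicate 2, so the groups overlapped. Without RNAi replicate 1 the log2 fold change of nog-1 was 1.12 (adjusted p = 0.00335, edgeR), and without that library and control replicate 3 it was 1.03 (adjusted p = 0.0204). byn-1, the bystin homologue of small-subunit assembly, was at 271, 350 and 257 CPM after RNAi, against 207, 184 and 204 CPM in the controls. Its groups did not overlap (log2 fold change 0.56, SE 0.15, adjusted p = 0.0607 in edgeR and 0.0469 in DESeq2). Without RNAi replicate 1 byn-1 had a log2 fold change of 0.61 and was called (adjusted p = 0.0387, edgeR), and without both libraries it was not (0.64, adjusted p = 0.120). Of the 15 tested ribosome biogenesis genes 12 had a log2 fold change above 0, with a median of 0.05.

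Of the 12 tested RNA polymerase III factors and SNAPc subunits 11 had a log2 fold change below 0, with a median of -0.12, and 5 had all RNAi libraries below all controls, a pattern of 14.6% of all tested genes. SNAPc binds the promoters of small nuclear RNA genes. snpc-3.1 was at 12.6, 13.9 and 9.74 CPM after RNAi, against 18.5, 17.9 and 19.6 CPM in the controls (log2 fold change -0.63, adjusted p = 0.0757 in edgeR and 0.0290 in DESeq2). snpc-3.2 and snpc-1.2 had log2 fold changes of -0.59 and -0.43 (adjusted p = 0.1326 and 0.1004, edgeR), and snpc-1.2 was called without RNAi replicate 1 (log2 fold change -0.51, adjusted p = 0.0366) but not without control replicate 3 as well (-0.50, adjusted p = 0.127). A further gene of the family, snpc-3.3, was in none of the lists and was also chosen after its values were seen. It was at 7.757, 5 and 5.572 CPM after RNAi, against 12.1, 12.7 and 15.3 CPM in the controls, with every RNAi library below every control library. It fell with a log2 fold change of -1.13 (SE 0.22, adjusted p = 0.0150 in edgeR). Its call was lost without any single control library (adjusted p = 0.0524, 0.0554 and 0.0754 without control replicates 1, 2 and 3) and held in the other 14 alternatives. Genes of the snpc-3 family resemble one another, and the sources used here do not give how reads that fit several genes were counted. All 4 tested shared polymerase subunits and 6 of 7 tested RNA polymerase II subunits had a log2 fold change below 0, with medians of -0.18 and -0.13, and 0 of these 11 were called by any of the 3 tools, with 0 at an unadjusted p under 0.05 in edgeR. Without RNAi replicate 1 edgeR called rpb-4, rpb-10 and rpb-11 lower, with log2 fold changes of -0.57, -0.71 and -0.60 and adjusted p of 0.0200, 0.00963 and 0.0154, and exos-1 of the RNA exosome (-0.51, adjusted p = 0.0474). Without control replicate 3 as well, the adjusted p of these 4 genes was 0.0934, 0.0532, 0.0730 and 0.157.

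Tissue markers were examined beside these values. Of 11 germline markers, 3 (pgl-3, nos-3 and him-3) were at 0 and 8 were tested, 7 of them with a log2 fold change below 0 and 0 called, and the list summed to 340 to 457 CPM in the RNAi libraries and 452 to 600 CPM in the controls. All 10 oocyte and early embryo markers had a log2 fold change below 0, with 0 called and sums of 1150 to 1449 CPM after RNAi and 1301 to 1691 CPM in the controls. Of 7 tested sperm markers all lay above 0 and 1 was called higher, with sums of 121 to 191 CPM after RNAi and 95.4 to 105 CPM in the controls. Intestinal markers summed to 508 to 834 CPM after RNAi and 442 to 462 CPM in the controls. Of the 5 tested ones 4 had a log2 fold change above 0 and 1 below 0 (-0.51), with 0 called. Hypodermal markers summed to 564 to 941 CPM after RNAi and 1361 to 1568 CPM in the controls. Of the 3 tested ones 2 were called lower, and col-19 and bli-1 were at 0. Pharyngeal muscle markers had 4 of 4 tested genes below 0 and 1 called lower, with sums of 119.3 to 131.7 CPM after RNAi and 197 to 232 CPM in the controls. Body wall muscle markers had 5 of 5 tested genes above 0 and neuron markers 4 of 4, with 0 called in edgeR and 1 and 0 at an unadjusted p under 0.05. The intestinal ifb-2, the pharyngeal tnt-4 and the neuronal rgef-1 were at 0. The body wall muscle sums were 1493 to 2087 CPM after RNAi and 1210 to 1363 CPM in the controls, and the neuron sums 517 to 714 CPM after RNAi and 487 to 533 CPM in the controls. At an unadjusted p under 0.05 in edgeR were 2 of 8 germline, 1 of 10 oocyte and early embryo, 3 of 7 sperm and 2 of 5 intestinal markers. So were 2 of 3 hypodermal and 1 of 4 pharyngeal muscle markers, against 23.3% of all tested genes. Of all tested genes edgeR called 3.97% higher and 5.01% lower. The part of tissue makeup in the values of the nucleolar and polymerase genes was not tested.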

How the data were processed

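Polyadenylated RNA of whole N2 worms was sequenced in 12 libraries, and the 6 libraries of the y54g2a.18 experiment were used. The authors deposited raw counts per gene with no normalization, 1 column per library. Per the submitters' processing notes, which give neither role nor order, the tools were HISAT2 2.2.1, FastQC 0.11.9, DESeq2 1.16.1 and featureCounts 1.28.1. The sources used here do not give the genome build, the annotation, the strand setting or the treatment of reads with several matches, so coordinates are not printed. Groups and replicate numbers came from the sample titles, and columns were matched by library name. Of 46903 entries 12 had a date as their name and were dropped (at most 0.0247% of a library's counts). Of values from 1 to 20, 71.5% were even. Counting both mates of some pairs could give such a share, in which case counting error would be larger than single counts imply. This was not tested. Transcript numbers, exon lengths and overlaps came from RefSeq and Ensembl tables of WBcel235, which may differ from the authors' annotation.

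In R 4.3.3, low genes were removed by filterByExpr (count of at least 10, total of at least 15), libraries scaled by TMM and fitted with edgeR 4.0.16 (quasi-likelihood, group only), with Benjamini-Hochberg adjustment over all 14290 genes tested and calls at 0.05. CPM values are TMM-scaled. Log2 fold changes are RNAi over control, and standard errors were derived from the F statistic, so they are approximate. The steps were tested on simulated counts. Alternatives were DESeq2 1.42.0 (size factors, and its Wald test), limma 3.58.1 (voom), upper-quartile factors, total counts, a filter of 1 CPM in 3 libraries or none, the replicate number as a block, the log2 ribosomal RNA share as a covariate, no ribosomal RNA entries and each library left out in turn. Keeping only the 4 libraries with at least 1% ribosomal RNA was added after seeing the data.

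The members and the other gene lists were chosen with earlier results of these data known. The genes described library by library were, by rule, the target, rpoa-49, members called and, in each of both groups, the 4 members with the smallest p and the 4 with the highest mean CPM.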

Additional observations from a re-analysis of the deposited data

How the results depend on the processing

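No member was called under the DESeq2 size factors, total counts, upper-quartile factors, either filter, the DESeq2 Wald test, limma-voom, the replicate block or without ribosomal RNA entries. With the ribosomal RNA covariate 1 polymerase gene (tif-1A) and 1 nucleolar gene (lpd-7) were called, and with single libraries left out 0 to 1 in each group, the 1 being tif-1A and lpd-7 without RNAi replicate 1. Genes called in the other lists numbered 1 with total counts (byn-1), 1 without a filter (nog-1), 3 with DESeq2 and 4 with the covariate. Of all tested genes these settings called 9.26, 6.90, 12.4 and 15.5%. With only libraries of at least 1% ribosomal RNA 1 was called (nog-1), against 5.82% of all tested genes. With single libraries left out 0 to 7 were called. They numbered 7 without RNAi replicate 1, 2 without RNAi replicate 3 and 1 without RNAi replicate 2. The shares of all tested genes were 14.4, 7.75 and 9.66%. Leaving out control replicate 1, 2 or 3 gave 0, against 4.43, 4.575 and 4.55% of all tested genes. The medians of both groups stayed between -0.16 and 0.02 over all alternatives. Of the 33 tested members 16 changed sign under some alternative, all with a log2 fold change of at most 0.1739 in size.

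With single libraries left out the log2 fold changes of these genes ran from -0.7402 to 0.3396 for rpoa-1, -0.7269 to 0.0965 for rpoa-2, -0.286 to 0.1738 for rpoa-12, -0.2019 to 0.0116 for rpac-40, -0.4235 to 0.185 for rpc-2, -0.222 to 0.0973 for rpc-25, -0.25 to 0.0632 for nol-6, -0.0545 to 0.3039 for nol-14, -0.0319 to 0.1323 for nol-56, -0.199 to 0.0684 for nucl-1, -0.2184 to 0.0685 for rbd-1, -0.1109 to 0.0131 for pro-1, -0.3144 to 0.3445 for pro-3, -0.0854 to 0.0474 for lpd-6 and -0.1693 to 0.1536 for eif-6. Upper-quartile factors gave 0.0424 for rpoa-12, 0.0338 for rpc-25, 0.013 for nucl-1, 0.0044 for pro-1, 0.0335 for lpd-6 and 0.0063 for eif-6. Total counts gave 0.0238 for rpoa-12, 0.0149 for rpc-25 and 0.0174 for lpd-6. For rpoa-12 no filter gave 0.0019 and the CPM filter 0.004. For rpoa-1 limma-voom gave -0.2055, the replicate block -0.2034 and the covariate -0.0749. Libraries of at least 1% ribosomal RNA gave -0.0214 for rpoa-49, 0.0022 for pro-1 and 0.008 for lpd-6. The cause was not tested.

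Same-numbered RNAi and control libraries share a number in their titles, and the labels do not say whether they were paired. Their deviations from the group means correlated at 0.0074, 0.0454 and -0.3655, and RNAi replicates 1 and 3 correlated best with control replicates 3 and 2 (0.3941 and 0.4033). The replicate block called 0 polymerase genes, 0 nucleolar genes, 0 genes of the other lists and 955 genes in all, against 1283 without it. Over all genes the calls numbered 646, 664 and 667 when control replicate 1, 2 or 3 was omitted, and 2097 when RNAi replicate 1 was.

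With 3 libraries a group, standard errors ran from 0.12 to 0.46 on the log2 scale. Small differences were therefore not detectable, least of all for rpoa-1, dao-5, rpc-1 and rpoa-2. Long transcripts varied by library, and dao-5 had only 11 to 34 counts in a library. The part of length and of low counts in these errors was not tested. Levels of genes with several RefSeq transcripts are uncertain, and brf-1, nola-3, ncl-1, nol-1 and nol-2 gave no test.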

Other observations

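Ratios of CPM between pairs of nucleolar genes differed in how steady they were. The pairs were chosen after their values were seen, and no test was run. The ratio of ruvb-1 to ruvb-2 CPM, whose products form 1 complex, was 1.102, 1.21 and 1.06 in the RNAi libraries and 1.198, 1.17 and 1.15 in the controls, a span of 1.14-fold. garr-1 and fib-1 belong to the separate guides of pseudouridine and methyl groups. The ratio of garr-1 to fib-1 was 0.418, 0.360 and 0.339 after RNAi and 0.327, 0.376 and 0.354 in the controls, a span of 1.278-fold. Both genes were lowest in RNAi replicate 3. The ratio of lpd-7 to fib-1 was 0.688, 0.985 and 1.204 after RNAi and 0.490, 0.567 and 0.441 in the controls, with every RNAi library above every control library.

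The products of RNA polymerase III were covered thinly. The 16 entries of 5S ribosomal RNA, a product of RNA polymerase III, held 4, 0 and 0 counts in the RNAi libraries and 0, 0 and 2 in the controls. The 612 transfer RNA entries together held 48, 58 and 54 counts after RNAi and 48, 42 and 33 in the controls. Polyadenylated RNA was sequenced, so these counts are not levels of the transcripts and were not compared.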
